A study of Homo sapiens with 20 samples.

Results

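Of the 246 protein-coding genes of human chromosome 19 in GENCODE whose symbol is ZNF followed by a number, 244 had a row in the count tables. The 123 of them that held at least 200 reads over the 9 DMSO libraries are the members described here, out of 19617 genes in all. Of the other 121, 18 had no read in any DMSO library. ZNF600, with 207 DMSO reads, lay just inside this limit and ZNF93, with 194, just outside it, so that ZNF93, a known silencer of LINE-1 elements, is not described further. Because the limit is set on DMSO reads, a gene that is low under DMSO and higher under dCBP-30 can fall outside the members.

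The cells were MM1.S, an established human multiple myeloma line of wild-type genotype, treated with 10 nM dCBP-30, a degrader of the histone acetyltransferases CBP and p300 that acts through the ubiquitin ligase receptor cereblon, or with the vehicle DMSO. Treatment lasted 2, 6 or 24 h with separate DMSO libraries for every time, and there were 3 libraries in each of the 6 groups. All 18 of these libraries were labelled with 4-thiouridine (4sU) for the last 1 h, and 2 further libraries of the same line had no 4sU and no stated treatment. The labels do not say that the 3 libraries of a group came from separate cultures, so the p-values measure the spread between these libraries only.

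KRAB zinc finger genes are the largest family of transcription factor genes in the human genome, and many of them lie in tandem clusters on chromosome 19 that arose by gene duplication. Their proteins pair a KRAB domain, which recruits TRIM28 and with it the histone methyltransferase SETDB1 and HP1 proteins, with an array of C2H2 zinc fingers that read DNA, often within transposable elements. Most are transcribed weakly and their transcripts tend to be short-lived, which makes them a group in which newly made RNA is a large part of what is present. CBP and p300 acetylate histones at enhancers and promoters, so the comparison asks how the RNA of this family moved when both were degraded.

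The symbol alone does not make a gene a KRAB gene. In the longest coding sequence of each member, the residue pattern F.DV followed within 45 residues by LY..VM, which most KRAB boxes hold, was found in 82 of the 123 members. The other 41, called the members without the KRAB letters below, include genes with few fingers such as ZNF428 and ZNF524, and a gene among them may still carry a diverged KRAB box, since only these letters were searched. The members coded for between 1 and 36 C2H2 fingers, with a median of 12. A check of the cell type against its markers gave medians from 131 to 1558 reads per 1000000 reads (RPM) under DMSO for the 8 plasma cell genes, SDC1, MZB1 and XBP1 highest. EPCAM was at 0 in every DMSO library, MS4A1, CD14 and COL1A1 reached at most 1.01 RPM in any of them, CD3E had a median of 4.56 RPM and PECAM1, which plasma cells also use, 9.90 RPM.

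The start of the KRAB box shows how closely related the members of one cluster are, and for that reason the sequences below are given for members whose RNA is followed in the results. Each is the first 24 bases of the KRAB box in the coding strand, 5′ to 3′, from GENCODE coding sequences on GRCh38, and the capitals mark the 4 codons that match F.DV. The 82 members with the letters had 62 different sequences over these bases.
ZNF431, ZNF493, ZNF208, ZNF681 and ZNF726: TTTAGGGATGTGgccatagaattc
ZNF708 and ZNF724: TTTATGGATGTGgccatagaattc
ZNF253, ZNF90 and ZNF66: TTTAGAGATGTGgccatagaattc
ZNF557: TTTGAGGATGTGgccgtggagttc
ZNF791: TTTGAGGATGTGtctgtgagcttc
ZNF627, ZNF44 and ZNF709: TTTGAGGATGTGgctgtgaacttc
ZNF226: TTCAAGGACGTGgctgtggccttc
The first 3 sequences belong to members between chr19:19668796 and chr19:23945159, and ZNF296, ZNF121, ZNF358 and ZNF587B, also followed below, had no match to the pattern.

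The 20 libraries held between 12440700 and 18729086 reads on genes. The 123 members took up between 0.183% and 0.216% of them under DMSO, that is 207 to 53837 DMSO reads per member with a median of 728, so that single members rest on few reads. ZNF428 and ZNF90 alone held between 34.5% and 38.7% of the members' reads in the DMSO libraries, and sums over the members are therefore given with and without them. Reads that mapped to several places made up over 10% of the reads of 4 members, namely ZNF66 (56.3%), ZNF607 (15.3%), ZNF302 (15.0%) and ZNF90 (10.7%), and the 3′ UTRs of ZNF700, ZNF709, ZNF564, ZNF490, ZNF83 and ZNF773 overlap that of another gene on the same strand, so that reads of these 10 members may be shared with another gene.

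RNA transcribed while 4sU was present shows up as reads that carry T>C conversions, called T>C reads here, and the labelled share of a gene is the percentage of its reads that do so. Under DMSO the members were more labelled than most genes. Over the 9 DMSO libraries their median labelled share was 29.5%, with a middle range from 19.9% to 43.8%, against 10.3% for the genes of the series with at least 200 DMSO reads, and 110 of the 123 members lay above that median. In the libraries without 4sU the median was 0.403% for the members and 0.557% for all these genes. ZNF genes of other chromosomes had a median of 25.8% and the other genes of chromosome 19 one of 5.46%. The share per read also depends on how many T positions a read covers, and by conversions per 100 covered T positions the order was the same, with medians of 2.88 for the members and 0.976 for all genes. The members with the KRAB letters had a median share of 29.9% and those without of 22.4%.

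Among members with at least 1000 DMSO reads, ZNF557 had the highest share, 60.0% under DMSO against 0.569% without 4sU, followed by ZNF587B with 59.5% and ZNF493 with 58.7%. ZNF587B is an exception that the libraries without 4sU reveal, because 43.1% of its reads there were T>C reads as well, so most of its share is not label. For ZNF493 no T>C read was found without 4sU. The lowest shares were 1.35% for ZNF358, 1.79% for ZNF90 and 4.30% for ZNF524. ZNF90 and ZNF428, the members with the most reads, thus had low shares, 1.79% and 4.70%, and they pull the share of the members' summed reads down to between 16.5% and 23.8% in the DMSO libraries.

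The test for T>C reads was the quasi-likelihood test of edgeR, with library sizes set by total reads and TMM factors, and a gene was called where its adjusted p was under 0.05 and it differed by more than 2-fold. Of the 123 members 120 passed the filter on low counts, which left out ZNF653, ZNF875 and ZNF841. In such bulk libraries fewer cells and less RNA per cell cannot be told apart. At 2 h, 3 of the 120 members were called lower in T>C reads (2.50%, against 7.14% of all 10086 genes) and 3 higher (2.50%, against 1.66%). The median log2 difference was 0.25 for the members and 0.05 for all genes, and 78 members lay above 0.

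ZNF296 was among the 3 that were lower at 2 h. It is the human counterpart of mouse Zfp296, known as a cofactor of the pluripotency network, and its 3′ UTR lies at chr19:45071500-45071603 (GRCh38, minus strand). In T>C reads it had 25.2, 26.5 and 36.4 RPM in the DMSO libraries at 2 h and 11.6, 15.4 and 8.70 RPM in the dCBP-30 libraries. All dCBP-30 libraries lay below all DMSO libraries, and the log2 difference was -1.30 (SE 0.24, edgeR adjusted p = 5.9e-05). At 6 h its T>C reads were 38.8, 24.5 and 22.6 RPM under DMSO and 2.22, 2.05 and 4.90 RPM under dCBP-30, a difference of -3.23 (SE 0.27, edgeR adjusted p = 2.7e-14). The change at 6 h exceeded that at 2 h by -1.93 on the log2 scale (SE 0.35, edgeR adjusted p = 0.00011 for the interaction). At 24 h the groups overlapped again, with 37.9, 27.9 and 37.0 RPM under DMSO and 28.5, 18 and 26.7 RPM under dCBP-30 (-0.49, edgeR adjusted p = 0.092). Its total reads were also lower at 2 and 6 h, by -0.90 and -2.71, but differed by 0.63 at 24 h (edgeR adjusted p = 0.017, 2.6e-09 and 0.015). At 24 h every dCBP-30 library was above every DMSO library in total reads, 97.6, 87.3 and 93.9 RPM against 63.8, 48.6 and 68.1 RPM. ZNF296 was thus the member with a deep loss at 6 h and a total above DMSO at 24 h.

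ZNF791 and ZNF709, which lie in the same cluster of chromosome 19, were the other members called lower at 2 h. ZNF791 had 41.0, 37.6 and 43.3 RPM of T>C reads in the DMSO libraries at 2 h and 17.0, 28.4 and 15.5 RPM in the dCBP-30 libraries. It stayed below DMSO at each time point, with no overlap, and its log2 differences were -1.0, -1.11 and -1.31 at 2, 6 and 24 h (SE 0.19 each, edgeR adjusted p = 4.5e-05, 3.0e-06 and 3.6e-08). The 2 h call is on the edge of the 2-fold limit: it was between -0.84 and -0.99 without replicate 1 or 3 of either group, and the 6 h value was -1.0, just under the limit, without replicate 1 of dCBP-30. ZNF709 rested on few reads, 23, 41 and 38 T>C reads under DMSO and 4, 7 and 3 under dCBP-30 at 2 h, and its 3′ UTR overlaps another annotated gene. Its difference was -2.89 (SE 0.73, edgeR adjusted p = 0.0032), its total reads were lower too, at -2.39 (edgeR adjusted p = 0.0015), and with reads summed over its transcripts the T>C call at 2 h was lost. At 24 h ZNF709 held 16, 51 and 20 T>C reads under DMSO and 32, 2 and 62 under dCBP-30, so that the dCBP-30 libraries lay on both sides of the DMSO libraries.

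The 3 members called higher at 2 h were ZNF708, ZNF431 and ZNF417. ZNF708 and ZNF431 lie in the same cluster. ZNF708 had 2.23, 1.34 and 1.49 RPM of T>C reads under DMSO at 2 h and 5.52, 6.20 and 3.88 RPM under dCBP-30, and 1.91, 2.01 and 1.70 against 7.12, 4.05 and 6.19 RPM at 6 h. The groups did not overlap at either time, and the difference was 1.62 at both (SE 0.39 and 0.38, edgeR adjusted p = 0.0021 and 0.00076). At 24 h T>C reads differed by 0.61 (edgeR adjusted p = 0.20) with overlapping groups, while the total reads of ZNF708 were higher at all 3 times, by 1.09, 1.40 and 1.26 (edgeR adjusted p = 0.0020, 5.7e-06 and 1.1e-05). It was the one member called higher in total reads at all 3 times.

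ZNF431 had 4.54, 4.02 and 4.93 RPM of T>C reads under DMSO at 2 h and 10.9, 9.57 and 9.33 RPM under dCBP-30, without overlap (1.14, SE 0.27, edgeR adjusted p = 0.0015). At 24 h the order was turned in part, with 11.8, 9.42 and 12.3 RPM under DMSO and 7.39, 6.32 and 9.60 RPM under dCBP-30 (-0.52, edgeR adjusted p = 0.10), and the difference between the changes at 24 and 2 h was -1.66 (SE 0.37, edgeR adjusted p = 0.00043). ZNF417 falls outside the rule for named genes and was named after its values were seen, to account for the third call: it had no T>C read in the 3 DMSO libraries at 2 h and 6, 10 and 8 in the dCBP-30 libraries, which is at least 7.60-fold higher when 3 counts are taken for the DMSO group. ZNF557, not beyond 2-fold, also rose at 2 h, from 30.1, 23.0 and 32.6 RPM of T>C reads to 47.7, 44.6 and 52.8 RPM (0.76, SE 0.17, edgeR adjusted p = 0.00096).

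**Figure D1:**
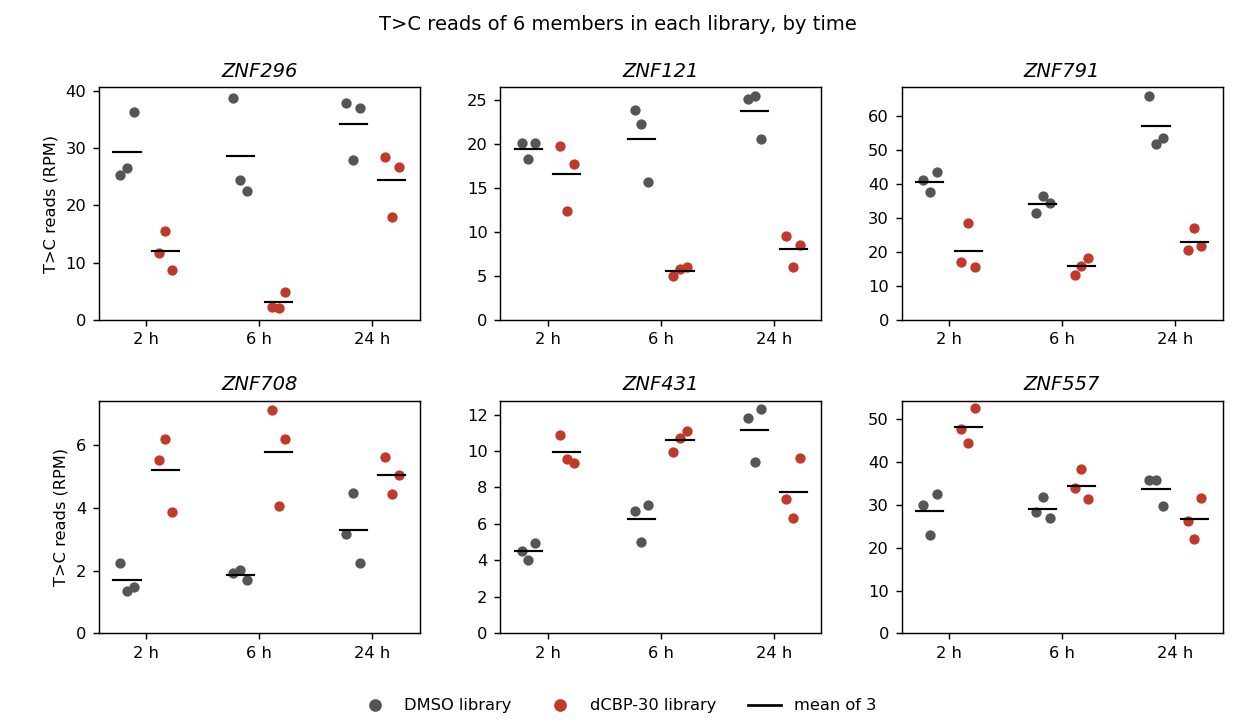
T>C reads in RPM (vertical axis, from 0) of ZNF296, ZNF121, ZNF791, ZNF708, ZNF431 and ZNF557 in each DMSO (grey) and dCBP-30 (red) library at 2, 6 and 24 h, with a black line at the mean of the 3 libraries of a group. ZNF296 was lowest at 6 h (2.22, 2.05 and 4.90 RPM), ZNF791 lay below DMSO at all times, and ZNF708 and ZNF431 lay above it at 2 and 6 h.

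At 6 h, 7 of the 120 members were called lower in T>C reads (5.83%, against 17.1% of all genes) and 4 higher (3.33%, against 2.36%). The median log2 difference was 0.18 for the members and -0.27 for all genes. ZNF121, whose coding sequence held no KRAB letters, was lower from 6 h on but not at 2 h. Its T>C reads at 2 h were 20.1, 18.3 and 20.1 RPM under DMSO and 19.8, 12.3 and 17.8 RPM under dCBP-30. At 6 h they were 23.9, 22.3 and 15.7 RPM against 5.03, 5.77 and 6.01 RPM, and at 24 h 25.1, 25.5 and 20.6 RPM against 9.57, 5.99 and 8.53 RPM. The differences were -0.23, -1.88 and -1.56 (edgeR adjusted p = 0.60, 6.3e-10 and 3.1e-08), and those at 6 and 24 h exceeded that at 2 h by -1.65 and -1.33 (edgeR adjusted p = 0.00012 and 0.00061).

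The others called lower at 6 h were ZNF791 and ZNF296, described above, and ZNF587B, ZNF681, ZNF460 and ZNF90. ZNF587B differed by -1.47 (SE 0.28, edgeR adjusted p = 2.4e-05), but most of its T>C reads are also found without label. ZNF681 had 36, 23 and 26 T>C reads under DMSO at 6 h and 4, 2 and 4 under dCBP-30 (-3.25, SE 0.77, edgeR adjusted p = 0.00072). ZNF460 had 27, 6 and 20 against 2, 3 and 0, a difference of -3.55 (SE 1.14, edgeR adjusted p = 0.016), and lost the call without replicate 3 of dCBP-30 (-3.02, edgeR adjusted p = 0.074) or replicate 1 of DMSO (-3.08, edgeR adjusted p = 0.072). ZNF90 had overlapping groups at 6 h, 49, 196 and 111 T>C reads under DMSO against 72, 79 and 35 under dCBP-30, and its difference of -1.15 was -0.60 without replicate 2 of DMSO (edgeR adjusted p = 0.31) and -0.89 without replicate 3 of dCBP-30 (edgeR adjusted p = 0.093).

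The members called higher at 6 h were ZNF708, ZNF329, ZNF699 and ZNF607. ZNF329 had 37, 48 and 40 T>C reads under DMSO and 90, 116 and 92 under dCBP-30 (1.03, edgeR adjusted p = 0.046). ZNF699 had 0, 4 and 3 against 20, 33 and 7 (2.80, edgeR adjusted p = 0.036). ZNF607 had 0, 2 and 1 against 10, 24 and 9, a ratio of 12.3 scaled to library size with a 95% exact counting interval from 3.94 to 62.0. All groups were apart, but ZNF329 lost its call without any 1 library of the 6, ZNF699 without replicates 1 or 2 of dCBP-30 or 1 or 3 of DMSO, and ZNF607 without replicate 2 of dCBP-30 or 1 or 3 of DMSO, with adjusted p between 0.067 and 0.16.

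At 24 h, 32 members were called lower in T>C reads (26.7%, against 31.2% of all genes) and none higher (0%, against 2.17%). No member was higher beyond 2-fold at an unadjusted p under 0.05 either. DESeq2 called 34 members lower and 0 higher, against 3239 and 265 of all 10086 genes. The medians were -0.67 for the members and -0.69 for all genes, with 38 members above 0, and whether the members differ from the other genes was not tested. The upper quartile was 0.23 for the members and -0.01 for all genes. These counts depend on the scaling. Relative to the T>C reads themselves the median of all genes was -0.04 and that of the members 0.03. Of 119 members 7 were then called lower and 6 higher, against 1513 and 759 of 10054 genes. Relative to total reads without TMM factors the medians were -0.16 and -0.13. Of 119 members 11 were then called lower and 2 higher, against 1763 and 602 of 10115 genes. Relative to all genes the members stood above at 6 h under each scaling, 0.18 against -0.27, 0.49 against 0.04 and 0.49 against 0.05.

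Of the 32, ZNF628 had 42, 19 and 45 T>C reads under DMSO at 24 h and 1, 7 and 4 under dCBP-30 (-3.39, SE 0.91, edgeR adjusted p = 0.0018). ZNF90 had 104, 125 and 89 against 14, 18 and 34 (-2.52, SE 0.39, edgeR adjusted p = 2.4e-07), a change that exceeded that at 2 h by -2.63 (edgeR adjusted p = 7.5e-05). ZNF726 had 20, 26 and 37 against 1, 7 and 5 (-2.92, SE 0.84, edgeR adjusted p = 0.0038), and ZNF681 had 42, 34 and 52 against 7, 7 and 9 (-2.74, SE 0.71, edgeR adjusted p = 0.0013). None of these 4 had overlapping groups, which for ZNF628, ZNF726 and ZNF681 was a condition of the naming rule. ZNF534 had 11, 70 and 10 T>C reads against 4, 2 and 8 (-2.86, edgeR adjusted p = 0.00085), which rests on replicate 2 of DMSO, without which it was -1.48 (edgeR adjusted p = 0.15).

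The change from 2 to 24 h was itself tested as an interaction, in which 21 of the 120 members were called lower at any size (17.5%, against 23.0% of all genes) and 1 higher (0.833%, against 3.02%), with medians of -1.04 and -0.72. Without replicate 2 of DMSO at 24 h, 13 were called lower. From 2 to 6 h, 3 members were called lower (2.50%, against 7.35%) and none higher (0%, against 0.684%), where 1 was higher at an unadjusted p under 0.05 and DESeq2 called none. The 3 were ZNF296, ZNF121 and ZNF587B. Both interactions share the libraries of 2 h.

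Total reads hold old and new RNA. At 2 and 6 h the members' median differences were above those of all genes in both T>C and total reads. At 24 h, with library sizes from total reads, the median was below 0 for T>C reads and above 0 for total reads. All 123 members were tested. At 2 h, 4 were called higher (3.25%, against 0.464% of all 12272 genes) and 2 lower (1.63%, against 1.25%), at 6 h 19 higher (15.4%, against 7.47%) and 6 lower (4.88%, against 8.67%), and at 24 h 31 higher (25.2%, against 15.0%) and 7 lower (5.69%, against 16.1%). The median log2 difference of the members was 0.31, 0.53 and 0.45 at 2, 6 and 24 h, against 0.00, 0.02 and 0.05 for all genes, and 92, 98 and 84 members lay above 0. The dCBP-30 libraries lay wholly above the DMSO libraries in 35, 53 and 52 of the 123 members, against 9.85%, 23.7% and 34.5% of all genes at 2, 6 and 24 h. They lay wholly below in 6, 8 and 19 members, against 10.1%, 24.3% and 33.0% of all genes. Without TMM factors the medians of all genes were 0.10, 0.35 and 0.58, and those of the members 0.42, 0.84 and 0.98. Called higher were then 7, 46 and 61 of the 123 members, against 92, 1765 and 3689 of 12303 genes. Called lower were 1, 2 and 2 members, against 127, 731 and 1061 genes.

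As a part of all reads, the members rose from between 0.183% and 0.199% in the DMSO libraries to between 0.216% and 0.223% under dCBP-30 at 2 h. At 6 h the ranges were 0.190% to 0.209% and 0.252% to 0.280%, and at 24 h 0.206% to 0.216% and 0.317% to 0.337%. Without ZNF428 and ZNF90 they were 0.127% to 0.141% under DMSO and 0.224% to 0.235% under dCBP-30 at 24 h. No range of a dCBP-30 group met that of its DMSO group in any of these cases. These parts are not scaled by TMM factors. On that scale the median total reads of all genes also rose, by 0.10, 0.35 and 0.58 log2 at 2, 6 and 24 h. The rise of the members' part is thus in some measure shared with all genes.

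**Figure D2:**
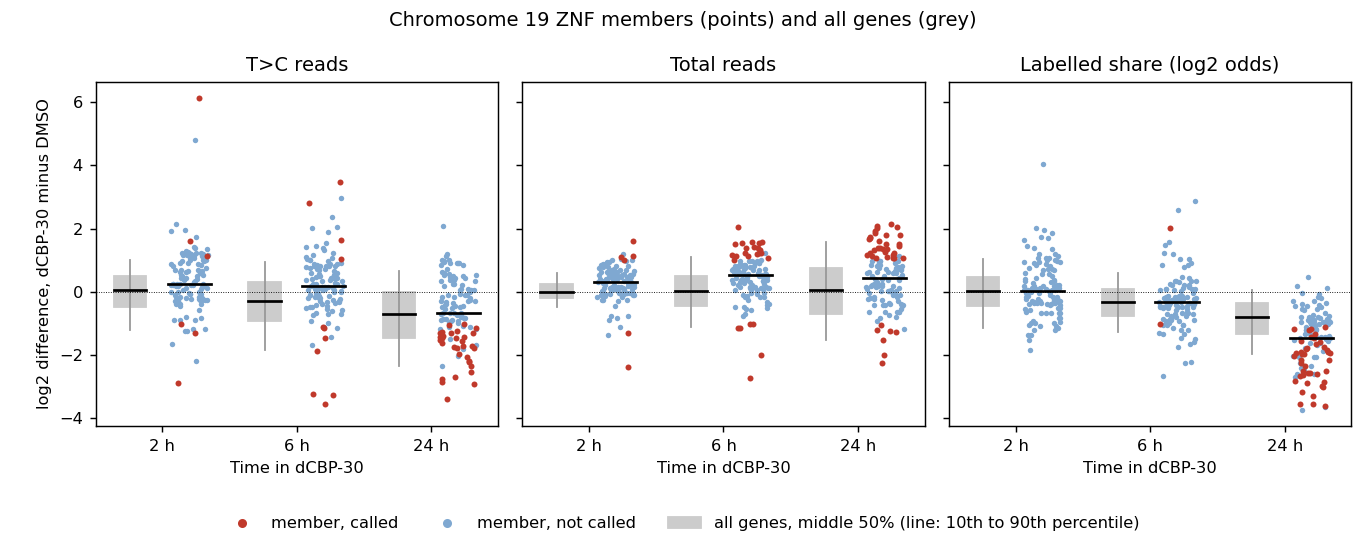
Log2 difference of dCBP-30 minus DMSO (vertical axis) at 2, 6 and 24 h for T>C reads, total reads and the log2 odds of the labelled share, with each point a member (red where called, blue where not) and the grey box and line the middle 50% and the 10th to 90th percentiles of all genes tested; black bars are medians. The members' total reads lay above the median of all genes at each time (0.31, 0.53 and 0.45), while their labelled share at 24 h lay below it (-1.44 against -0.81). The highest T>C point at 2 h is ZNF417, which had no T>C read under DMSO and whose fitted value is no estimate of its size.

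ZNF708, ZNF829, ZNF773 and ZNF530 were the 4 members called higher in total reads at 2 h, the last 3 named after their values were seen, and ZNF709 and ZNF681 the 2 lower, of which ZNF681 (-1.29, edgeR adjusted p = 0.039) lost its call without any 1 library other than replicate 2 of DMSO. Of the 19 called higher at 6 h, 11 were also called at 24 h, which is 57.9% of the first list and 35.5% of the second, against 59.2% and 29.5% for all genes. Of the 31 called higher at 24 h, 30 had T>C reads tested, and 24 of these lay above 0 in T>C reads with a median of 0.58, but none was called. In the same 30 the labelled share was lower in 29, as it was in nearly all members tested at 24 h (given below). These 30 were also chosen for higher total reads, by which the share is divided. The 7 called lower at 24 h, ZNF724, ZNF681, ZNF726, ZNF480, ZNF534, ZNF551 and ZNF587B, were all called lower in T>C reads too.

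Among called members without overlap between the groups, the 4 largest increases in total reads at 24 h were in ZNF358, ZNF226, ZNF283 and ZNF211. ZNF358, whose 3′ UTR lies at chr19:7520947-7521025 (plus strand), went from 14.9, 10.3 and 12.8 RPM under DMSO to 57.7, 63.3 and 48.5 RPM, a log2 difference of 2.16 (SE 0.23, edgeR adjusted p = 1.4e-08). It held at most 7 T>C reads in a DMSO library at that time and between 16 and 20 in the dCBP-30 libraries, and its T>C reads were not called. ZNF226 went from 2.85, 2.27 and 4.13 RPM to 9.30, 14.7 and 15.3 RPM (2.09, SE 0.35, edgeR adjusted p = 1.7e-05). ZNF283 went from 2.20, 2.50 and 0.798 RPM to 7.82, 8.62 and 6.81 RPM, and ZNF211 from 1.49, 1.97 and 2.61 RPM to 8.81, 10.7 and 4.83 RPM (2.06 and 2.00, edgeR adjusted p = 0.0012 each). That the dCBP-30 libraries lay above the DMSO libraries in all 4 was a condition of the naming rule. ZNF226 and ZNF283 lie in one cluster.

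ZNF493 showed how total and T>C reads could part. Its total reads at 24 h were 8.68, 8.88 and 11.5 RPM under DMSO and 29.4, 31.6 and 34.9 RPM under dCBP-30 (1.73, SE 0.22, edgeR adjusted p = 3.4e-07). Its T>C reads were 6.67, 5.78 and 7.69 RPM against 5.64, 5.77 and 6.76 RPM, overlapping (-0.15, edgeR adjusted p = 0.75). The labelled share was therefore 76.9%, 65.1% and 67.1% under DMSO and 19.1%, 18.2% and 19.4% under dCBP-30, far apart (log2 odds -3.30, SE 0.32, limma adjusted p = 0.00018). At 2 h its shares overlapped, 42.9%, 59.1% and 48.3% against 50%, 50.5% and 58.6%. At 24 h conversions per T>C read were also fewer under dCBP-30 over all genes, 1.43 to 1.51 against 2.46 to 2.51 under DMSO. The part of this in the T>C reads of ZNF493 was not tested.

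Among the decreases, ZNF534 went from 41.1, 44.1 and 34.1 RPM in total reads under DMSO at 24 h to 8.15, 8.29 and 8.48 RPM (-2.26, SE 0.20, edgeR adjusted p = 6.7e-10), while at 2 and 6 h it differed by 0.59 and 0.16 (edgeR adjusted p = 0.095 and 0.54). ZNF681 went from 7.84, 6.80 and 11 RPM to 1.86, 1.81 and 2.79 RPM (-1.98, SE 0.36, edgeR adjusted p = 4.2e-05). ZNF587B went from 16, 25.2 and 14.6 RPM to 5.03, 6.37 and 7.99 RPM (-1.52, SE 0.23, edgeR adjusted p = 4.3e-06), and ZNF724 from 4.08, 7.33 and 5.15 RPM to 1.81, 1.32 and 3.76 RPM (-1.27, SE 0.40, edgeR adjusted p = 0.0091). The naming rule asked for no overlap in these 4 as well. ZNF724 was at -0.99 without replicate 2 of dCBP-30 (edgeR adjusted p = 0.056) and at -1.0 without replicate 2 of DMSO (edgeR adjusted p = 0.061).

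**Figure D3:**
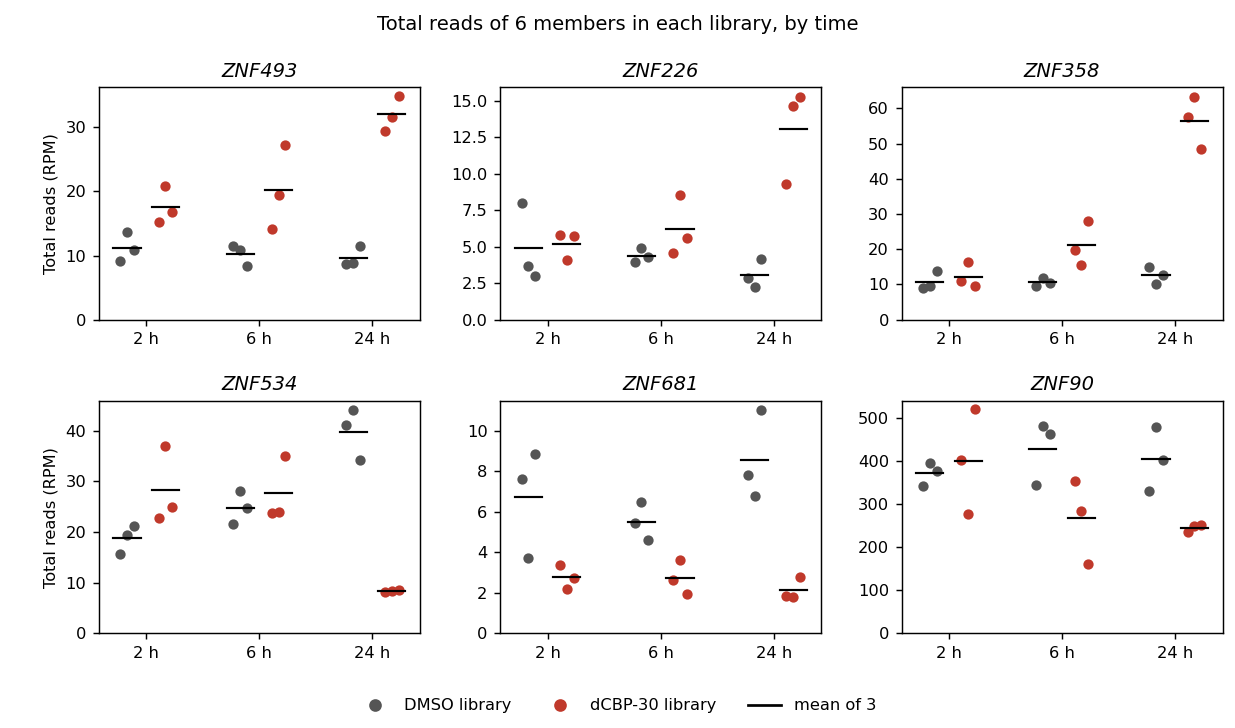
Total reads in RPM (vertical axis, from 0) of ZNF493, ZNF226, ZNF358, ZNF534, ZNF681 and ZNF90 in each DMSO (grey) and dCBP-30 (red) library at 2, 6 and 24 h, with a black line at the mean of 3 libraries. ZNF493, ZNF226 and ZNF358 lay above DMSO at 24 h (ZNF358 between 48.5 and 63.3 RPM) and ZNF534, ZNF681 and ZNF90 below it (ZNF534 between 8.15 and 8.48 RPM).

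The labelled share was tested with limma on the log2 odds of T>C reads against other reads, with adjusted p under 0.05 at any size. At 2 h no member was called lower (0%, against 4.25% of all genes) or higher (0%, against 0.605%), with 2 and 12 at an unadjusted p under 0.05 and none by edgeR with the total reads as an offset. At 6 h 1 was lower, ZNF121 (0.833%, against 4.05%), and 1 higher, ZNF607 (0.833%, against 0.139%), and both calls were lost without any 1 of the 6 libraries. With reads summed over transcripts the difference for ZNF607 turned from 2.02 to -0.050. At 24 h 42 members were lower (35.0%, against 23.3%) and none higher (0%, against 0.139%, and none at an unadjusted p under 0.05). By edgeR with the total reads as an offset 38 of the 120 members were lower, against 2755 of all 10086 genes. None was higher, against 19 of all genes. The medians by that test lay closer together, at -0.95 for the members and -0.66 for all genes. By limma the count of lower members fell to 26 of 121 without replicate 2 of dCBP-30 at 24 h. It fell to 25 of 121 without replicate 3 of DMSO at 24 h. The count over all genes fell too, to 1408 of 10355 and 1421 of 10410, from 2350 of 10086. The median log2 odds difference was 0.04, -0.32 and -1.44 for the members at 2, 6 and 24 h, against 0.03, -0.34 and -0.81 for all genes, and all but 3 of the 120 members lay below 0 at 24 h.

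In percent, the median share of the members was 23.2% to 26.8% in the DMSO libraries at 2 h and 23.1% to 28.1% under dCBP-30. At 6 h it was 21.3% to 26.6% against 19.1% to 22.2%, and at 24 h 33.3% to 38.8% against 16.4% to 18.5%. The groups overlapped at 2 and 6 h and were apart at 24 h. Part of the distance at 24 h lies in the DMSO libraries of that time, whose shares were above those of the DMSO libraries at 2 and 6 h, and the same was so for all genes, with medians of 11.9% to 12.4% at 24 h against 8.11% to 8.88% at 2 and 6 h. Conversions per T>C read moved with it: at 24 h the members had 1.41 to 1.48 under dCBP-30 and 2.33 to 2.42 under DMSO, and all genes 1.43 to 1.51 against 2.46 to 2.51, whereas at 2 and 6 h the members lay between 2.12 and 2.36 in every library. The part of this in the lower share at 24 h was not tested.

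**Figure D4:**
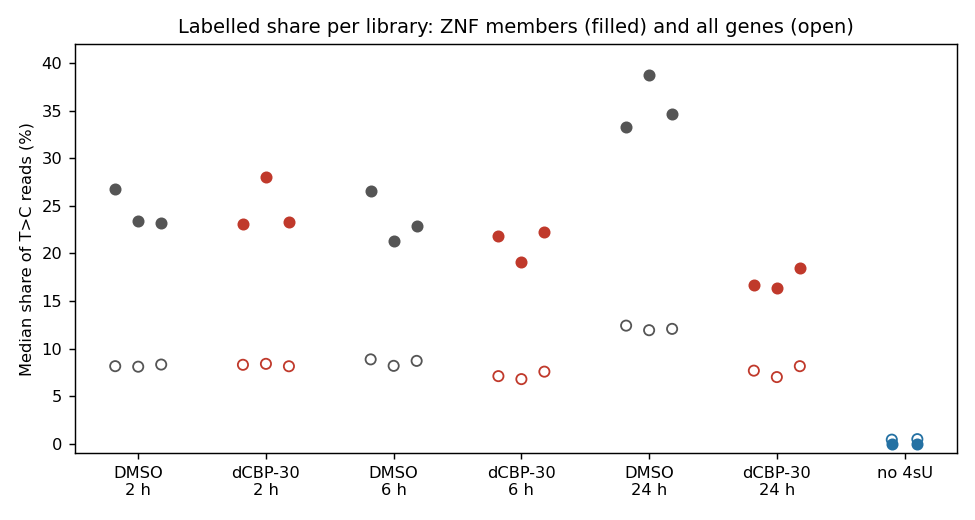
Median labelled share in percent (vertical axis) over the 123 members (filled) and over all genes with at least 200 DMSO reads (open) in each library, by treatment and time; grey is DMSO, red dCBP-30 and blue the 2 libraries without 4sU. The members' medians lay between 16.4% and 18.5% under dCBP-30 at 24 h and between 33.3% and 38.8% under DMSO.

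ZNF557, with many reads, shows the same course in a single gene. Its share was 63.4%, 53.9% and 59.1% under DMSO at 2 h and 58.5%, 55.9% and 61.3% under dCBP-30, and at 24 h 63.3%, 71.0% and 64.7% against 36.9%, 28.8% and 36.5% (log2 odds -1.94, SE 0.28, limma adjusted p = 0.00065). ZNF791 went at 24 h from 46.1%, 40.7% and 41.6% to 20.8%, 22.1% and 22.9% (-1.41, limma adjusted p = 0.00095), and ZNF90 from 2.04%, 1.56% and 1.60% to 0.325%, 0.397% and 0.721% (-1.91, limma adjusted p = 0.0030). For ZNF90 the shares at 24 h under dCBP-30 were near the 0.35% seen without 4sU. ZNF428 differed by -0.49 in log2 odds (limma adjusted p = 0.13), its shares being 6.65%, 5.45% and 4.36% under DMSO 4.02%, 3.84% and 3.91% under dCBP-30, against 2.26% without 4sU. under dCBP-30.

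The members lie in 14 runs along chromosome 19, a run being a stretch in which no 2 neighbouring members are more than 1000000 bases apart. In the run at chr19:23221599-23945159, with 4 members, 3 were called lower in total reads at 24 h (ZNF724, ZNF681 and ZNF726), ZNF675 was at -1.17 (edgeR adjusted p = 0.088), and the median was -1.24. In the next but one run all 3 members, ZNF302, ZNF181 and ZNF599, were called higher, by 1.39, 1.71 and 1.52 (edgeR adjusted p = 0.00031, 0.00030 and 0.0017), though 15.0% of the reads of ZNF302 mapped to several places. The largest run, chr19:55476617-58481230, held 40 members of which 11 were called higher and 2 lower, and in the run with ZNF226 and ZNF283 3 of 10 were higher and none lower. Of all genes 15.0% were called higher and 16.1% lower in total reads at 24 h, and most runs hold too few members to be read against these shares. Neighbours share duplicated sequence and are not independent, and the runs were not tested against each other.

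**Figure D5:**
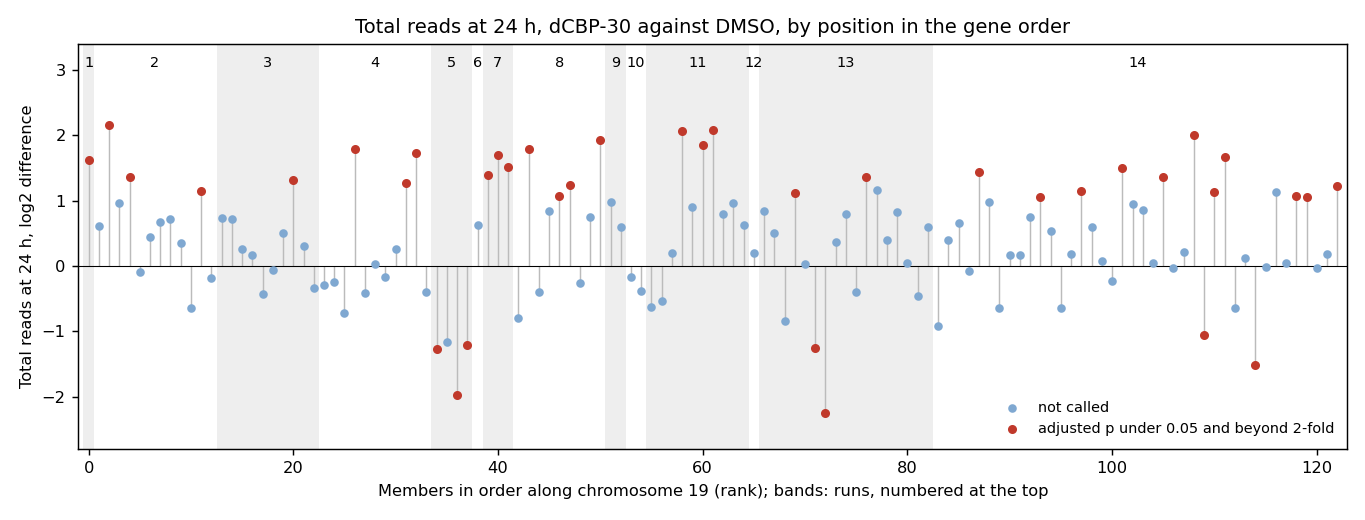
Log2 difference in total reads at 24 h (vertical axis) of the 123 members in their order along chromosome 19 (horizontal axis, rank), with bands for the 14 runs and red points for called members. The 4 members of run 5 all lay below 0 (median -1.24) and the 3 of run 7 all above it (median 1.52).

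Over the 24 bases of the KRAB box that start at the F.DV match, 10 sequences were shared by more than 1 member, 30 members in all. In total reads at 24 h, 2 of the 10 held members called in both directions, 3 held calls in 1 direction and 5 held no call, and in 4 all members lay on the same side of 0. Those with calls in both directions are described here, chosen after their values were seen and with no test. Of the 5 members with the sequence TTTAGGGATGTGgccatagaattc, the total reads at 24 h were higher in ZNF493 (1.73) and lower in ZNF681 (-1.98) and ZNF726 (-1.21, edgeR adjusted p = 0.020, lost without replicate 1 of dCBP-30 or of DMSO), and ZNF431 was at 0.26 and ZNF208 at -0.40, neither called. ZNF681 and ZNF726 lie in the run that was lower as a whole and the other 3 in the run before it. ZNF708 and ZNF724, which share the next sequence, were at 1.26 and -1.27 and lie in the same 2 runs.

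The members with and without the KRAB letters were compared by their counts only, with no test of the difference. In total reads at 24 h, 25 of 82 with the letters (30.5%) and 6 of 41 without (14.6%) were called higher, against 15.0% of all genes, and 6 and 1 lower, against 16.1%. The share called higher among members without the letters was thus near that of all genes. In T>C reads at 24 h, 17 of 81 (21.0%) and 15 of 39 (38.5%) were called lower, against 31.2% of all genes, and the medians were -0.45 and -0.91. Both sets also differ in depth and form, with a median of 562 and 1418 DMSO reads and of 2723 and 958 bases of 3′ UTR, and the part of these in the counts was not tested. ZNF genes of other chromosomes resembled the members, 38 of 168 (22.6%) called higher and 11 (6.55%) lower in total reads at 24 h with a median of 0.32, and a share difference of -1.33. Among the other genes of chromosome 19, 78 of 584 (13.4%) were higher and 83 (14.2%) lower, with medians of -0.04 in total reads and -0.78 in share.

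Of the members known for the elements or loci they bind, ZNF274 and ZNF808 passed the limit on reads. ZNF274, which binds the 3′ ends of zinc finger genes and brings SETDB1 to them, had 5.12, 4.05 and 3.19 RPM in total reads under DMSO at 24 h and 5.96, 9.17 and 10.8 RPM under dCBP-30, without overlap (1.07, SE 0.30, edgeR adjusted p = 0.0038). It fell under 2-fold without replicate 3 of dCBP-30 (0.87, edgeR adjusted p = 0.029) or replicate 3 of DMSO (0.92, edgeR adjusted p = 0.026). ZNF808, a silencer of MER11 elements needed for the growth of the pancreas, had 7.52, 5.37 and 3.19 RPM against 6.73, 7.36 and 6.60 RPM, overlapping (0.36, edgeR adjusted p = 0.45). ZNF600, at the limit of depth, was at 1.16 (edgeR adjusted p = 0.12).

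The genes through which KRAB proteins act were listed apart, 18 in number, of which 17 passed the filters and EHMT2 had no read on its transcript. TRIM28, the scaffold that the KRAB domain binds, had 19.4 ± 1.51 RPM of T>C reads under DMSO at 24 h and 9.64 ± 1.71 under dCBP-30 (SD, n = 3 each), a log2 difference of -1.0 (edgeR adjusted p = 0.00047), while its total reads differed by -0.45 (edgeR adjusted p = 0.072). SETDB1, the methyltransferase of this complex, differed by 0.10 in T>C reads and rose by 0.79 in total reads, from 34.8 ± 1.29 to 60.1 ± 5.97 RPM (SD, n = 3 each, edgeR adjusted p = 1.5e-05). In T>C reads at 24 h, 5 of the 17 were called lower (29.4%, against the 31.2% given above): TRIM28, the HP1 gene CBX1, the deacetylase HDAC2, and UHRF1 and DNMT1, which maintain DNA methylation. UHRF1 fell by 4.51 and DNMT1 by 1.91 (edgeR adjusted p = 1.1e-19 and 7.8e-12). At earlier times some moved the other way: UHRF1 was called higher in T>C reads at 2 h (1.02, edgeR adjusted p = 0.0010), its total reads rose by 0.67 and 0.96 at 2 and 6 h (edgeR adjusted p = 0.0099 and 2.0e-05), and those of TRIM28 rose by 0.68 at 6 h (edgeR adjusted p = 0.015). Of the 17, MORC2 and CHD4 were called lower in T>C reads at 6 h, when 17.1% of all genes were. Their differences were -1.85 and -1.17 (edgeR adjusted p = 0.0042 and 7.1e-06). In total reads at 24 h UHRF1, DNMT1 and the HP1 gene CBX3 were called lower, of the 17, and so were 16.1% of all genes. ATF7IP, a partner of SETDB1, was called higher, by 1.17 (edgeR adjusted p = 1.4e-07), as were 15.0% of all genes.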

How the data were processed

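MM1.S libraries were made by SLAM-seq with 3′ end sequencing (QuantSeq), in which iodoacetamide turns 4sU in new RNA into T>C conversions. Per the study's methods, the authors trimmed reads with TrimGalore and counted them with Slamdunk over hg38 3′ UTRs. The methods also state that RNA of 4sU-treated Drosophila cells was added as an external spike-in before conversion. The scaling here did not use it. The deposited values are counts per transcript, of all reads and of T>C reads, with no normalization. The members and lists were chosen with earlier results of these data known. Of 97466 transcript rows 89088 (91.4%) matched GENCODE, and a gene was represented by its transcript with the most reads. T>C and total counts were tested with edgeR 4.0.16 (quasi-likelihood) in one fit over the 18 labelled libraries with total-read TMM factors, and the labelled share with limma 3.58.1 on log2 odds (pseudocount 0.5), in R 4.3.3. P-values were adjusted by Benjamini-Hochberg over all genes tested, and RPM is reads per 1000000 of this scaled total. Members were named by a rule: the 4 largest called changes each way in T>C reads at each time (no overlap, and 10 or more T>C reads on average in the group with more) and in total reads at 24 h, the 3 highest and 3 lowest shares among members with at least 1000 DMSO reads, the 4 deepest, those at the read limit, and known silencers. Others were named after their values were seen, to account for small counts or for a shared sequence or run. Library totals ran from 12440700 to 18729086 reads. Without molecular identifiers, intervals and floors cover counting error only. Replicates were compared by chi-square and none was a copy of another. Alternatives were DESeq2 1.42.0, other scalings and filters, summed transcripts, another read limit, a block for the replicate number and fits without 1 library. The tests were checked on simulated data. A change was taken as recovered at an adjusted p under 0.05 in the right direction, without the 2-fold limit used for calls. The changed genes were drawn from all genes tested. Members had a median of 728 DMSO reads, against 3694 for all genes with at least 200. Recovery among the members under the calling rule was not tested and may be lower. They recovered 14% to 25.5% of 2-fold changes in T>C reads, 64% to 68% in total reads and 0% to 3.5% in labelled share. Of 4-fold changes they recovered 65.5% to 68%, 84% to 85.5% and 40% to 42.5%. The interaction tests, counted in either direction, recovered 4.5% and 0.5% of 2-fold changes and 43% and 41% of 4-fold ones. A gene that was not called may therefore still have changed.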

Additional observations from a re-analysis of the deposited data

Results flagged for a closer look

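Among the members named by the rule, 8 had a change in T>C reads that differed between time points by the interaction test of edgeR, with 3 libraries a group. The counts over all members tested, 21 lower and 1 higher for 24 h minus 2 h and 3 lower for 6 h minus 2 h, stand in the report. All of these share the libraries of 2 h. ZNF296 changed by -1.93 more at 6 h than at 2 h (SE 0.35, adjusted p = 0.00011), and ZNF121 by -1.65 at 6 h (SE 0.31, adjusted p = 0.00012) and -1.33 at 24 h (SE 0.31, adjusted p = 0.00061). ZNF587B changed by -1.68 at 6 h (SE 0.39, adjusted p = 0.0019) and -1.97 at 24 h (SE 0.39, adjusted p = 6.7e-05), although many of its T>C reads are also seen without 4sU. At 24 h against 2 h, ZNF90 changed by -2.63 (SE 0.52, adjusted p = 7.5e-05), ZNF431 by -1.66 (SE 0.37, adjusted p = 0.00043) and ZNF557 by -1.10 (SE 0.24, adjusted p = 0.00038).

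ZNF534 changed by -2.59 (SE 0.94, adjusted p = 0.033) at 24 h against 2 h, and by -1.21 (edgeR adjusted p = 0.42) without replicate 2 of DMSO at 24 h. ZNF709 changed by 2.80 (SE 0.96, adjusted p = 0.023), the one in the other direction, and by 1.91 (edgeR adjusted p = 0.16) without replicate 3 of dCBP-30 at 24 h.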

How the results depend on the processing

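Most members held few T>C reads, so depth limits single genes, and the scaling sets the level around which all changes are read. Scaled to T>C reads with their own TMM factors, the T>C comparison gave 11 higher and a median of 0.49 at 6 h, 7 lower, 6 higher and a median of 0.027 at 24 h, a median of 0.093 for 6 h minus 2 h, and 4 lower, 2 higher and a median of -0.41 for 24 h minus 2 h. With total reads and no TMM factors these were 11 and 0.49, then 11, 2 and -0.13, then 0.0012, then 9, 2 and -0.61, and total reads gave 1 lower, 7 higher and a median of 0.42 at 2 h, with 2, 46 and 0.84 at 6 h and with 2, 61 and 0.98 at 24 h. These shifts follow the medians of all genes, which moved with the scaling. At 6 h, 518 of 10054 genes were called higher in T>C reads under the first scaling and 525 of 10115 under the second. For 24 h minus 2 h, 1002 genes were lower and 696 higher under the first, and 1323 and 520 under the second.

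DESeq2 called 8 of 120 members higher in T>C reads at 6 h, against 328 of 10086 genes. With no filter 2 of 123 were higher for 24 h minus 2 h, against 319 of 13807 genes. With a mean of at least 20 counts 2 of 75 were higher at 6 h, against 180 of 7560 genes, with a median of 0.063. With reads summed over transcripts 1 of 123 members was lower in T>C reads at 2 h (610 of 10894 genes) and 1 in total reads (135 of 12909 genes). For 24 h minus 2 h 0 were higher (231 of 10894 genes). In share 1 was higher at 2 h (58 of 10894 genes) and 0 at 6 h (13 of 10894 genes). The share of ZNF607 at 6 h turned from 2.02 to -0.050. With a limit of 400 reads in the 18 labelled libraries (135 members) the T>C median at 6 h was 0.25. The total medians were then 0.57 at 6 h and 0.59 at 24 h, and 2 were higher for 24 h minus 2 h (305 of 10086 genes). By edgeR with total reads as an offset 2 were lower and 0 higher in share at 6 h (901 and 25 of 10086 genes). The median at 24 h was then -0.95. A set of 113 members with under 10% multimapping reads and no overlapping UTR was chosen after seeing the data. Of these 0 were higher for 24 h minus 2 h (305 of 10086 genes). In total reads 1 was lower at 2 h (153 of 12272 genes), and 0 were higher in share at 6 h (14 of 10086 genes). The cause of these moves was not tested.

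Replicate numbers did not pair the samples, since same-numbered DMSO and dCBP-30 libraries deviated with correlations from -0.105 to 0.030. With the replicate block, 1 member was higher in T>C reads at 6 h (205 of 10086 genes) with a median of 0.29. For 24 h minus 2 h 0 were higher (269 of 10086 genes). In total reads at 2 h 1 was lower and 2 higher (135 and 39 of 12272 genes). In share at 6 h 0 were lower and 0 higher (38 and 2 of 10086 genes).

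Leaving out 1 library at a time gave 2 to 3 lower, 2 to 5 higher and medians of 0.23 to 0.51 in T>C reads at 2 h (5 higher without replicate 1 of DMSO), 5 to 7, 1 to 5 and 0.17 to 0.29 at 6 h (without replicate 2 of dCBP-30 1 higher, without DMSO replicate 3 2 higher), and 24 to 31, 0 to 1 and -0.62 to -0.48 at 24 h (1 higher without replicate 1 of dCBP-30). For 6 h minus 2 h it gave 3 to 4, 0 and -0.31 to -0.11, and for 24 h minus 2 h 13 to 22, 0 to 2 and -1.11 to -0.90. Total reads gave 1 to 3, 2 to 5 and 0.24 to 0.34 at 2 h (1 lower without replicate 1 of dCBP-30 or 1 or 3 of DMSO, 2 higher without replicate 3 of dCBP-30 or 2 of DMSO), 3 to 5, 18 to 22 and 0.46 to 0.50 at 6 h (3 lower without replicate 1 or 3 of dCBP-30 or 1 of DMSO), and 5 to 8, 26 to 32 and 0.43 to 0.49 at 24 h. The share gave 0 lower, 0 to 2 higher and -0.10 to 0.15 at 2 h (2 higher without replicate 2 of DMSO), 0 to 1, 0 to 1 and -0.44 to -0.29 at 6 h, and 25 to 37, 0 and -1.48 to -1.26 at 24 h. Over all genes these fits gave 2803 to 3167 lower in T>C reads and 1359 to 2158 lower in share at 24 h, of 10355 to 10410 tested. In total reads at 24 h they gave 1922 to 1986 lower and 1734 to 1833 higher, of 12487 to 12578 tested. The 308 values for single genes include those that were never called. Among the called ones, 29 lost their call in at least 1 such fit, so 308 is not the number of calls at risk.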
